A study of Mus musculus with 4 samples.

Results

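The genes described here encode 9 proteins that act at or just behind the T cell receptor: the receptor chain gene Cd3d, the tyrosine kinase genes Zap70 and Fyn, the adaptor gene Lat, the phosphatase genes Ptprc, Ptpn6 and Ptpn22, and Prkcq and Malt1, which carry the signal towards NF-kB. They are 9 of 21887 protein-coding genes. Their peaks were taken from the peak lists of 2 chromatin immunoprecipitation (ChIP-seq) libraries, in which DNA bound by a protein is recovered with an antibody and sequenced. A peak belonged to a gene where its summit lay inside that gene, or where an end of that gene was the nearest end of any protein-coding gene, within 100 kb. By this rule 11 of 1106 anti-Eos peaks (0.995%, 95% Wilson interval 0.556 to 1.77%) and 5 of 469 anti-Helios peaks (1.07%, 0.456 to 2.47%) belonged to the 9 genes. The genes were picked with the peak lists already known, so the presence of a peak at each of them is no result. The Wilson intervals here and below treat peaks as independent draws. Peaks at picked genes are not, and Prkcq alone gave 3 of the 11 anti-Eos peaks. The intervals therefore show only how small the counts are.

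Eos (Ikzf4) and Helios (Ikzf2) are relatives of the zinc finger protein Ikaros, which bind DNA, are known to act with corepressor complexes and are both expressed in regulatory T cells (Treg cells). Both libraries came from spleen cells of wild-type mice, labelled Treg, that had been purified with a CD4+CD25+ isolation kit, fixed for 10 min in 1% formaldehyde and precipitated with 6 µg of antibody, clone 18H2 against Eos or D8W4X against Helios. The labels name no sort on Foxp3, no strain, no age and no number of mice pooled. The series has 4 libraries, 1 per group. The other 2 come from Eos-flox x Foxp3-Cre mice, in which Cre removes Eos in cells that express Foxp3, and were not analysed here. With 1 library per antibody there is no replicate error and no test between groups. Coordinates are those of GRCm38 (mm10).

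When an antigen is recognised, the kinases Lck and Fyn phosphorylate the CD3 chains of the receptor, Zap70 docks there and phosphorylates the membrane adaptor Lat, and Lat gathers the enzymes that raise calcium and diacylglycerol. Diacylglycerol recruits protein kinase C theta (Prkcq), which switches on a complex that holds the paracaspase Malt1 and leads to NF-kB. The phosphatase CD45 (Ptprc) keeps Src-family kinases such as Fyn ready to act, whereas SHP-1 (Ptpn6) and Ptpn22 remove activating phosphates and restrain the signal. Treg cells need signals from this receptor for their suppressive function.

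Of the 11 anti-Eos peaks, 3 met a promoter window, the stretch from 250 bases before to 50 bases after a transcript start in RefSeq (GRCm38.p6). These lay at Zap70, Lat and Ptpn22. The anti-Helios peaks at Zap70 and Lat met the same windows. The stretches of these windows that lie under the anti-Eos peak are printed here so that the letters can be read beside the summits. Both Zap70 summits lie past the printed end, so the letters under them are not shown. Each runs 5′ to 3′ along its gene's own strand and stops at most 30 bases past the start. Capitals mark GGGAA, the core of sites known for Ikaros family proteins, and TGTGGT, known for RUNX proteins, each on either strand. They span chr1:36761651-36761827 (plus strand) for Zap70, chr7:126369539-126369716 (minus strand) for Lat and chr3:103860071-103860306 (plus strand) for Ptpn22.
Zap70: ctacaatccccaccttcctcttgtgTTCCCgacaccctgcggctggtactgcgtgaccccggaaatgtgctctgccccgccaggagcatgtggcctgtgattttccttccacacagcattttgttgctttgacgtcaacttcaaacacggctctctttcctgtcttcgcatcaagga
Lat: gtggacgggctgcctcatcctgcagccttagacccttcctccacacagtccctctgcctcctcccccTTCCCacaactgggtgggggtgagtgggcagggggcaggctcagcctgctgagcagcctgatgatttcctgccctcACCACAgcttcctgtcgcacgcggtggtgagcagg
Ptpn22: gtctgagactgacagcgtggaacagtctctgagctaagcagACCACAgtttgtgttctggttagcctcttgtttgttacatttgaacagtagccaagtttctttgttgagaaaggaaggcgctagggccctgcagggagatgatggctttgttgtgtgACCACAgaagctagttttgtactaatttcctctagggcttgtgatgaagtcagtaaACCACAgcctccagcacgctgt

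In the Lat stretch the middle of the GGGAA match lay 4 bp from the anti-Eos summit and 105 bp from the anti-Helios summit. That match overlaps a match to GGAAG, the core of ETS sites, which was also searched for, so its letters do not single out 1 family. The TGTGGT match of the Lat stretch lay 28 bp from the anti-Helios summit and 73 bp from the anti-Eos summit. In the Zap70 stretch the GGGAA match lay 170 and 174 bp from the summits, which were just past the printed end and the promoter window. Bases past the promoter windows were not searched. A match nearer to the Zap70 summits, or to the Lat anti-Helios summit close to its window's edge, could therefore have been missed. The Ptpn22 stretch held 3 TGTGGT matches, and the anti-Eos summit, 165 bp before the start, was the outermost base of the first. Its GGGAA match lay in the same window but outside the peak, so all 3 windows that met a peak held GGGAA, as did 4 of the 9 other windows of these genes. GGAAG was in all 3 as well, in 7 of the 9 others and in 71.4% of all promoter windows. GGGAA occurs in 62.7% and TGTGGT in 16.8% of all 32851 promoter windows, and 3 or more TGTGGT matches in 0.183%. The cut of 3 is the number seen at Ptpn22 itself, so the last share is no test. For GGGAA, of which the Zap70 window held 3, the share with 3 or more is 8.83%. The Zap70 stretch also held TGACGTCA, the textbook cAMP response element, centred 14 bp before the start, a motif searched for only after the stretch had been read and present in 1.79% of windows. A match is a description of the letters, not evidence that a factor was bound through them.

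Every one of the 16 summits lay inside its gene, against 55.5% of all anti-Eos and 63.3% of all anti-Helios summits inside some protein-coding gene. Lying inside a gene was itself a way for a summit to be assigned, whereas the list shares cover every summit. The difference is thus partly built in. The genes had a median length of 48.0 kb, against 17.2 kb for all protein-coding genes and 28.7 kb for those with an anti-Eos summit. They ranged from 5.28 kb (Cd3d) and 5.88 kb (Lat) to 196 kb (Fyn), so not all of them are long. Within 1 kb of either end of the gene lay 4 of 11 anti-Eos summits (36.4%) and 3 of 5 anti-Helios summits (60.0%), against 39.5% and 51% of the whole lists. The 11 and 5 peaks therefore sat close to the lists' own shares, with wide Wilson intervals of 15.2 to 64.6% and 23.1 to 88.2%. Within 1 kb of a transcript start of their own gene in the promoter table lay 3 of 11 anti-Eos summits (27.3%) and 2 of 5 anti-Helios summits (40%). In the whole lists 39.1% and 51.4% lay within 1 kb of a start of any gene, which is a wider measure. Malt1 has no start in that table, so its anti-Eos summit could not be counted as near one. An annotated end was not always a start. Cd3d counted as near through its 3′ end, whereas Ptpn22, 3537 bp from its annotated end, had its summit at an inner start.

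**Figure D1:**
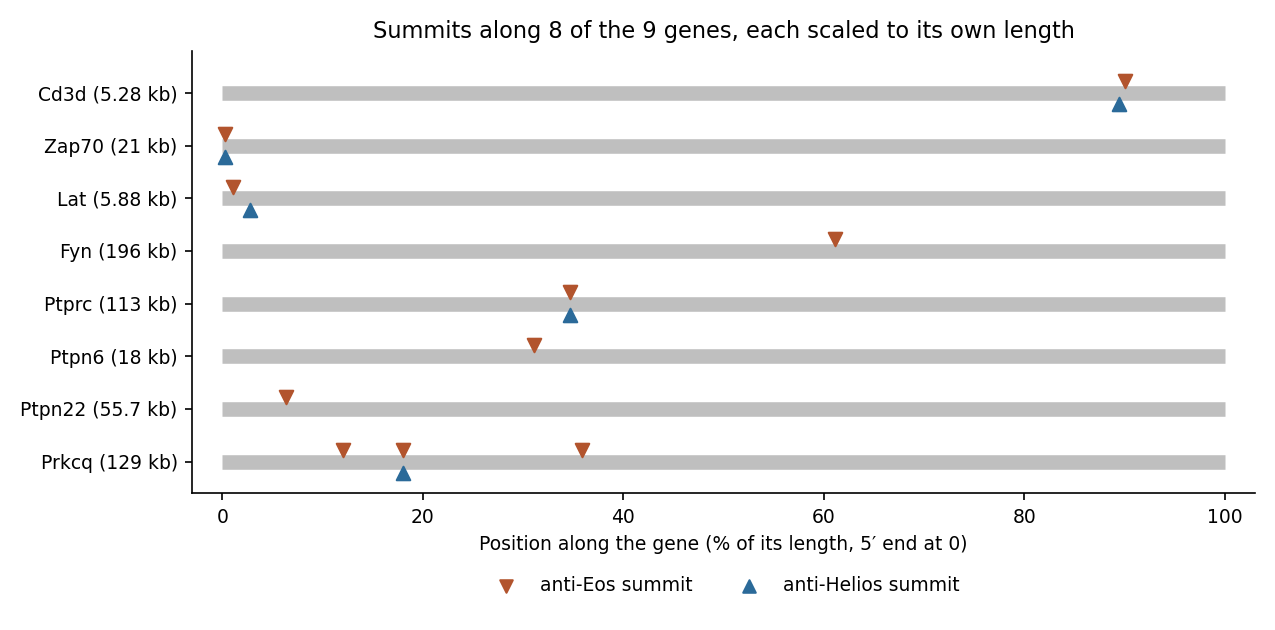
Position of each summit along its gene, as a percent of gene length from the 5′ end, for the 8 genes with a strand in the promoter table (Malt1 has none there). Downward triangles are anti-Eos and upward triangles anti-Helios summits; they lie at the 5′ end of Zap70 and Lat, at about 90.1% and 89.5% of Cd3d, and well inside Ptprc, Fyn, Ptpn6 and Prkcq.

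Anti-Eos summits were present at all 9 genes (background: 4.38% of protein-coding genes) and anti-Helios summits at 5 of them, Cd3d, Zap70, Lat, Ptprc and Prkcq (background: 2.12%). Fyn, Ptpn6, Ptpn22 and Malt1 had an anti-Eos peak only. A summit of both antibodies was held by 1.54% of all protein-coding genes, and overlapping peaks of both by 1.44%. It was held by 35.2% of the 958 genes with an anti-Eos summit. All 5 anti-Helios peaks overlapped an anti-Eos peak by at least 1 bp (Wilson interval 56.6 to 100%), against 65.9% of the whole anti-Helios list. Of the 11 anti-Eos peaks, 5 were overlapped (45.5%, 21.3 to 72.0%), against 27.9% of the whole list. Both list-wide shares lie inside these intervals, which is no test because the genes were picked. The anti-Eos list is the longer one: among its 469 peaks with the highest -log10 q (8.54 or more), 4 of the 11 were left, those at Zap70, Cd3d and Ptprc and the innermost of Prkcq.

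Folds below are the authors' own value for each peak, over a control that is not named in the sources used here. If the control was the knockout library, a fold would set wild-type against knockout rather than bound against unbound DNA. Folds are ranked within a list and not compared between lists, because the lists were called separately. The number of fragments at each summit was solved from the deposited fold and p-value, as given under the processing, with exact Poisson intervals that cover counting error only. For anti-Helios the fragments are unscaled counts, whereas the background beside them is in units scaled by 0.8951.

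At Cd3d, which encodes the CD3 delta chain, the anti-Eos peak (chr9:44986338-44986698) had a fold of 10.6 and ranked 155th of 1106, with 20 fragments (12.2 to 30.9) over a local background of 0.98. The anti-Helios peak (chr9:44986429-44986595) had a fold of 5.70 and ranked 394th of 469, with 18 fragments (10.7 to 28.4) over 2.0. It lay wholly within the anti-Eos peak, with summits 32 bp apart. Both summits were near the 3′ end of the gene, 520 and 552 bp before it and 4.75 and 4.71 kb after the start. The promoter window of Cd3d met no peak. An enhancer at the 3′ end of Cd3d is known, and Ikaros, the founding protein of the family, was first isolated through its binding to that enhancer. Whether the peak coincides with the enhancer was not tested. No summit of either antibody lay in Cd3e or Cd3g, the neighbouring chain genes, and the Cd3g end was 6101 bp from the anti-Eos summit.

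Zap70, the kinase that docks on the phosphorylated receptor, had the peaks that ranked highest by fold among the 9 genes in both lists. The anti-Eos peak (chr1:36761651-36761949) had a fold of 13.3, rank 56 of 1106, from 20 fragments (12.2 to 30.9) over 0.577. The anti-Helios peak (chr1:36761652-36761933) had a fold of 8.60, rank 156 of 469, from 17 fragments (9.90 to 27.2) over 0.887. The anti-Helios peak lay within the anti-Eos peak, and the summits were 4 bp apart, 50 and 54 bp after the outermost of 3 starts. Neither of the inner Zap70 promoter windows met a peak.

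Fyn, the Src-family kinase, held its only peak far from any start (chr10:39489149-39489267). Its fold was 6.57, rank 734 of 1106, from 12 fragments (6.20 to 21.0) over 0.98. The summit lay 119 kb after the start of this 196 kb gene. The nearest anti-Helios summit was 1157 kb away.

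Lat, the membrane adaptor, was the gene whose summits differed most in place. The anti-Eos peak (chr7:126369492-126369716) had a fold of 7.20, rank 571 of 1106, from 13 fragments (6.92 to 22.2) over 0.943. The anti-Helios peak (chr7:126369452-126369632) had a fold of 8.19, rank 169 of 469, from 19 fragments (11.4 to 29.7) over 1.2. The peaks shared 141 bp, but the anti-Eos summit lay 75 bp before the start and the anti-Helios summit 26 bp after it, 101 bp apart. Among all 310 overlapping pairs in the lists the median distance between summits was 30.5 bp, and 43 pairs were over 100 bp apart. With so few fragments the position of a summit is itself uncertain. An end of Spns1, a lipid transporter gene, lay 417 and 518 bp from these summits and the microRNA gene Mir7058 1598 and 1497 bp, so the peak cannot be given to Lat alone.

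**Figure D2:**
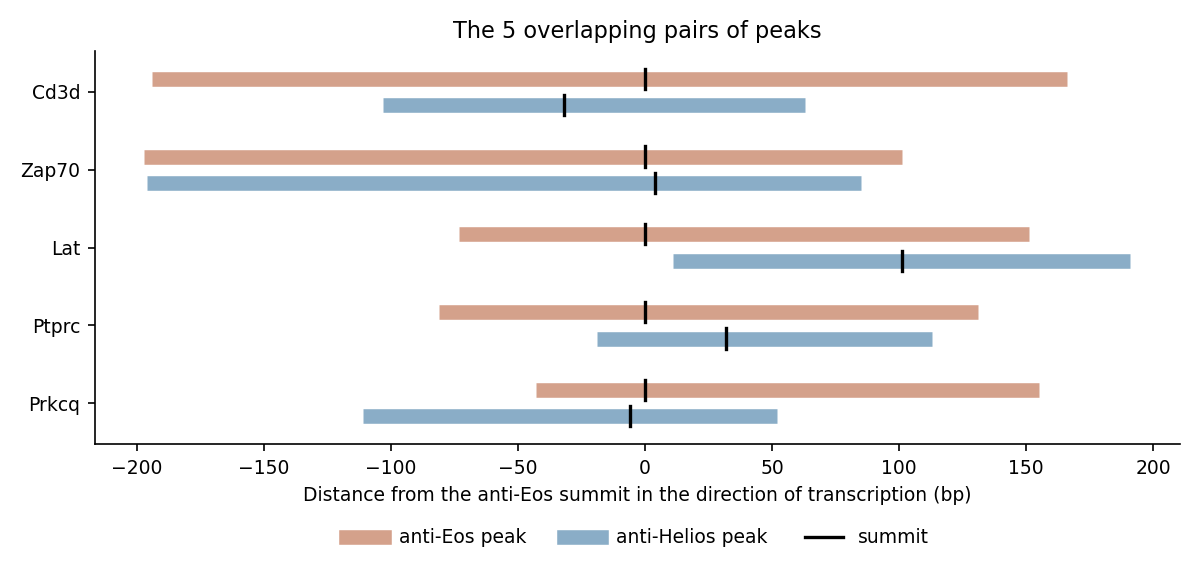
Extent of the 5 overlapping pairs of peaks, as distance in bp from the anti-Eos summit in the direction of transcription, with black ticks at the summits. The summits are 4 bp apart at Zap70, 6 at Prkcq, 32 at Cd3d and Ptprc, and 101 at Lat.

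The phosphatase genes differed in where their peaks lay and in whether an anti-Helios peak was called. A missing call does not show that Helios was absent. Ptprc had overlapping peaks 38.5 and 38.6 kb after its nearest start, at 34.7% of the gene. The anti-Eos peak (chr1:138136446-138136658) had a fold of 6.79, rank 663 of 1106 by fold but 310 by -log10 q (11.0), because its 25 fragments (16.2 to 36.9), the most of the 11, stood over the highest local background of the 11, 2.83. The anti-Helios peak (chr1:138136464-138136596) had a fold of 7.66, rank 227 of 469, from 16 fragments (9.15 to 26) over 1.00. The summits were 32 bp apart.

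Ptpn6 and Ptpn22, the genes of the phosphatases that restrain the signal, each had 1 anti-Eos peak. That of Ptpn6 (chr6:124733068-124733233) lay 5.60 kb after the start. Its fold was 6.57 and its -log10 q of 5.26 the lowest of the 11, from 10 fragments (4.80 to 18.4) over 0.675. An overlapping pair with more fragments lay 2.37 and 2.38 kb before the Ptpn6 start, 8 and 19 bp from an end of the neighbouring gene Grcc10, to which it was assigned. Its folds were 13.7 with anti-Eos (29 fragments) and 4.49 with anti-Helios (34 fragments). These were the only summits within 100 kb of any of the 9 genes that were assigned elsewhere. The Ptpn22 peak (chr3:103860071-103860331) had a fold of 7.56, rank 524 of 1106, from 11 fragments (5.49 to 19.7) over 0.588. It met the window of the inner of 2 starts and not that of the outer. The nearest anti-Helios summit was 474 kb away.

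Prkcq, the gene of protein kinase C theta, had 3 anti-Eos summits. That number was reached or passed by 27 protein-coding genes, 0.123% of all, most of which held no summit. The genes with any anti-Eos summit number 958 and have a median length of 28.7 kb. Prkcq is longer, at 129 kb, and the part of length was not tested. Its 3 anti-Eos summits lay 15.1, 22.8 and 46.0 kb after its start. The first (chr2:11187396-11187513) had a fold of 7.46 from 11 fragments (5.49 to 19.7). The middle one (chr2:11195096-11195294) had a fold of 6.93 from 10 fragments (4.80 to 18.4). The innermost (chr2:11218274-11218398) had the highest fold of the 3, 9.08, rank 295 of 1106, from 13 fragments (6.92 to 22.2). Their intervals overlap, so no order among them can be read. The anti-Helios peak (chr2:11195028-11195191) met the middle one, with summits 6 bp apart and 96 bp in common. It was the weakest of the 5, with a fold of 4.51, rank 445 of 469, and a -log10 q of 2.33, close to the smallest of that list (2.24). It rested on 14 fragments (7.65 to 23.5) over 2.0.

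Malt1, the paracaspase, had an anti-Eos peak 89 bp inside an end of the gene (chr18:65430959-65431088). Its fold was 6.84, rank 649 of 1106, from 15 fragments (8.40 to 24.7) over 1.34. The nearest anti-Helios summit was 1815 kb away, and the nearest other protein-coding gene, Alpk2, 37.1 kb.

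**Figure D3:**
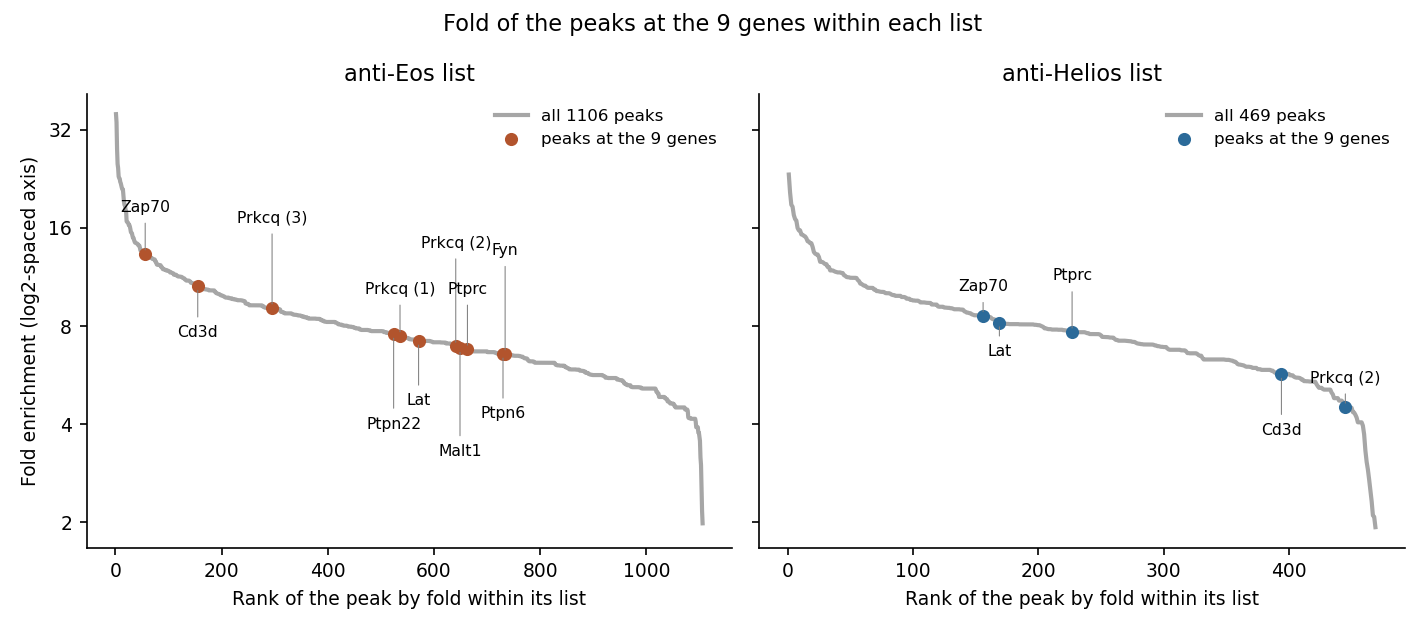
Fold of every peak (grey line, log2-spaced axis) against its rank within its list, with the peaks at the 9 genes as points; Prkcq peaks are numbered from the start of the gene. Zap70 has the highest of these folds in both lists (13.3 and 8.60), and most other points lie near the middle of the curve, at folds of 6.57 to 9.08 for anti-Eos, apart from Cd3d at 10.6.

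Set against their lists, most of these peaks were of ordinary strength. The median anti-Eos fold was 7.20 (range 6.57 to 13.3), against 7.31 for the list, and the median fragment number 13, against 14. The median anti-Helios fold was 7.66 (4.51 to 8.60), equal to that of the list. All 11 anti-Eos peaks had a -log10 q of at least 5 (Wilson interval 74.1 to 100%), against 74.4% of the list, as did 4 of the 5 anti-Helios peaks (37.6 to 96.4%), against 76.1%. Both list shares lie inside these intervals, which again is no test at picked genes. Anti-Eos peaks with a Helios partner had 20 fragments at the median (10 to 25) and those without 11.5 (10 to 15), and the ranges overlap. Their median -log10 q was 11.0 (5.84 to 19.3) and 6.92 (5.26 to 9.91), and in the whole list it was 11.5 for peaks with a partner and 6.69 for those without. Places below the calling threshold are not listed, so the lack of an anti-Helios peak at Fyn, Ptpn6, Ptpn22 and Malt1 does not show that Helios was absent there.

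**Figure D4:**
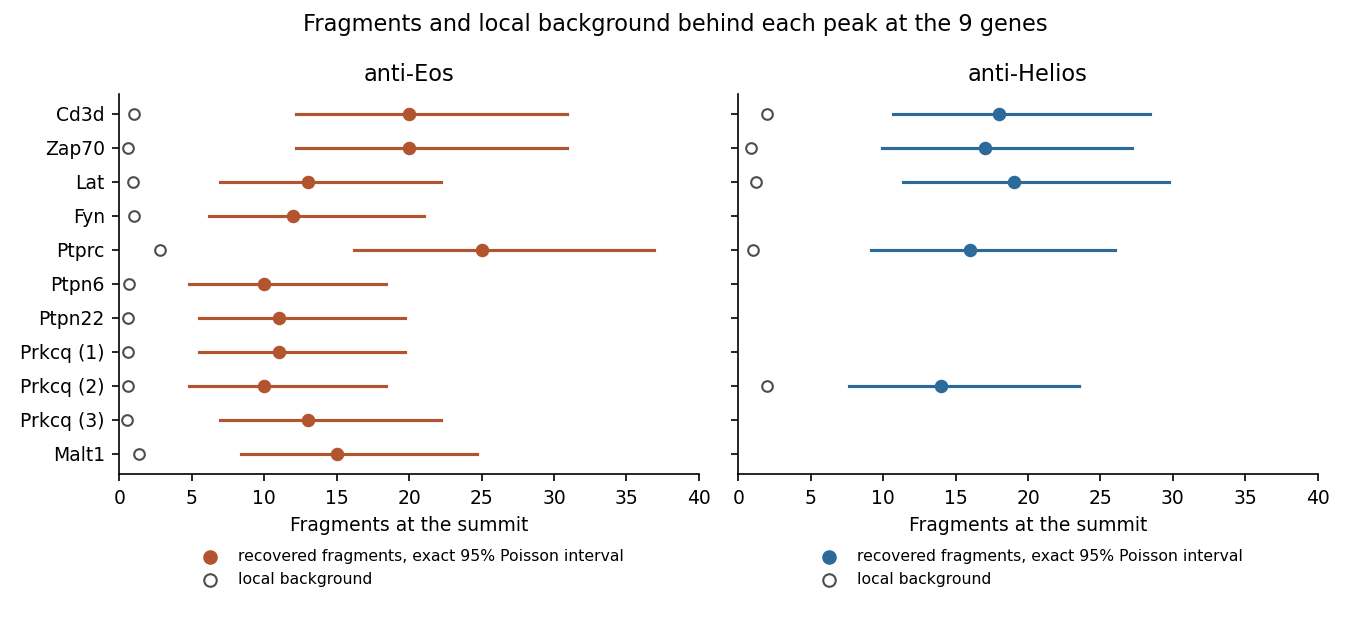
Recovered fragments at each summit (filled points, exact 95% Poisson intervals) and local background (open points) for the 11 anti-Eos and 5 anti-Helios peaks. For anti-Helios the background is in scaled units and the fragments are unscaled. All intervals within an antibody overlap; Ptprc has the most anti-Eos fragments (25) and the highest anti-Eos background (2.83).

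The other genes of T cell receptor signalling were taken from a list of 60, drawn up with earlier results of these data known. Shares within it are a description and no test of enrichment. Of these, 18 held an anti-Eos summit (30%, against 4.38% of protein-coding genes), 12 an anti-Helios summit (20%, against 2.12%), 7 both and 37 neither. Their median length was 58.1 kb, against 17.2 kb for all protein-coding genes, and the part of length in these shares was not tested. Lck, Cd3e, Cd3g, Cd4 and Vav1, whose products act beside those of the 9 genes, were among the 37. Overlapping peaks of both antibodies lay at 6 of the 7 genes with both. Csk, the kinase that holds Src-family kinases inactive, had an overlapping pair with folds of 6.91 and 10.5, rank 68 of 469 in the anti-Helios list, 5022 and 5045 bp from a start, besides 1 further summit of each antibody. The pair at the phosphatase gene Ptpn7 lay 49 and 66 bp from a start (folds of 7.27 and 8.66). The pairs at Dgka (13.4 and 11.4), the adaptor gene Grb2 (6.58 and 9.90) and the calcium sensor gene Stim2 (5.75 and 5.65) lay outside the gene. Dgkz, a diacylglycerol kinase gene like Dgka, had 2 anti-Eos summits and 1 anti-Helios summit that did not overlap.

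Among genes with 1 antibody only, the highest folds were with anti-Eos at Cd28, the costimulatory receptor (12.3, 3833 bp from the gene), Pag1, the membrane anchor of Csk (10.0, 32.3 kb outside it), the calcium channel gene Itpr1 (9.26), Cd247, which encodes the CD3 zeta chain (9.08), Ubash3b (8.75), the adaptor gene Nck2 (8.43) and the phosphatase gene Ptpn11 (8.02, 23.4 kb outside). The Cd247 summit lay inside that gene but nearer to an end of Pou2f1. With anti-Helios they were at 2 partners of Lat, Grap2 (9.01, 133 bp outside an end) and Lcp2 (8.11), and at the ubiquitin ligase gene Cbl (7.38, 123 bp from a start). The 16 proximal genes of the B cell receptor, such as Cd79a, Syk, Btk and Blnk, held no summit of either antibody (median length 47.4 kb), and neither did 8 B cell, 8 myeloid or 7 CD8 and NK cell markers. At the shares of all protein-coding genes, 4.38% and 2.12%, less than 1 gene would be reached in each of these short lists, so these zeros are near the background and show no contrast. Of 10 Treg markers 7 held an anti-Eos and 2 an anti-Helios summit, and Foxp3, Ctla4 and Tigit held none. Of 8 general T cell markers the numbers were 5 (62.5%) and 2 (25%), so nothing particular to the Treg markers can be read from these counts. These counts describe chromatin that was recovered from these cells. Random placement was not modelled here, and sites bound by these factors cannot be told apart from open T cell chromatin that comes down with any antibody.

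**Figure D5:**
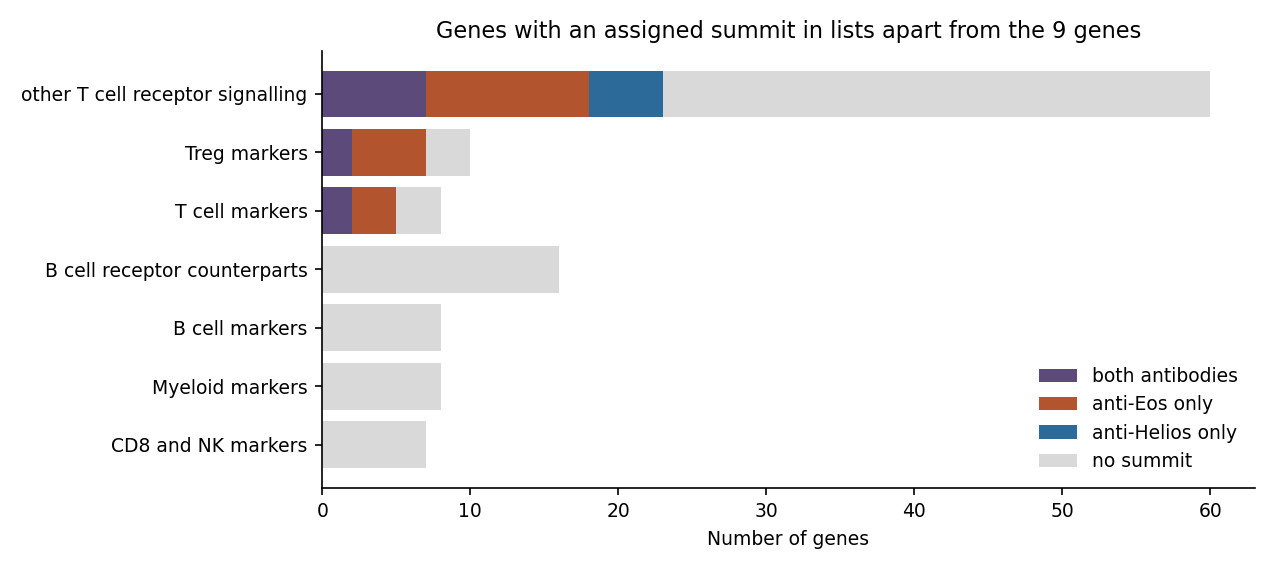
Number of genes in each list with summits of both antibodies, of 1 antibody or of neither. Of the 60 other T cell receptor signalling genes 23 held a summit, and of the 16 B cell receptor counterparts none did.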

How the data were processed

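The authors deposited 1 peak list per library. Per the submitters' processing notes, reads were handled with BWA 0.7.1, SAMtools 1.17, Cutadapt 4.4, deepTools 3.5.1 and Picard, on mm10 (GRCm38.p6). No source used here names the peak caller or its control. Each deposited line held a fold (a ratio over background), a -log10 p-value, a -log10 q-value, an integer score (10 times the -log10 q, cut to a whole number) and the distance from peak start to summit (of another kind).

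Fragments were solved as the whole number n for which fold is (scaled n plus 1) over (background plus 1) and p an upper Poisson tail. Both values came back for 100% of peaks (relative tolerance 0.0001), with more than 1 solution for 1 peak of each list, none at the 9 genes. The formula is inferred from the values, not stated. Scaling was 1 (anti-Eos) and 0.8951 (anti-Helios). The number n is unscaled and the background is in scaled units, so the units differ for anti-Helios. The median number was 14 fragments (7 to 106) for anti-Eos and 18 (9 to 124) for anti-Helios, so single folds are imprecise.

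Gene ends and promoter windows came from RefSeq tables of GRCm38.p6. The promoter table matched 8 of the 9 genes, with 12 windows. Peaks overlapped where they shared at least 1 bp. Shares have 95% Wilson intervals. Scripts ran in Python 3.11.15 with scipy 1.17.1 and were tested on simulated peaks. All 9 genes and their peaks are named. Of the other T cell receptor genes, those with both antibodies are named, except 1 that is not reported here, then the 10 with the highest fold. The genes and lists were chosen with earlier results of these data known. Alternatives changed the assignment distance, the q threshold, the list size, the overlap rule and the meaning of near.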

Additional observations from a re-analysis of the deposited data

How the results depend on the processing

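Of 59 alternative values of the counts at the 9 genes, 49 stayed within 1.5 times the reported count. Some of these could not have moved. Every summit lay inside its gene, so assignment distances of 10 and 500 kb could change no count. Assignment by the nearest end alone within 100 kb was fixed too, because each gene also had the nearest end. The 49 therefore overstates how stable the counts are. With the anti-Eos list shortened to its 469 peaks with the highest -log10 q, 4 genes held 4 anti-Eos summits, 3 of which overlapped an anti-Helios peak and 2 of which were within 1 kb of an end. With assignment by the nearest end alone and within 10 kb, an alternative chosen after the data were seen, 6 anti-Eos and 3 anti-Helios summits were left, at 6 and 3 genes, and 3 genes held both antibodies, with 3 overlapping anti-Eos peaks. With a reciprocal overlap of at least 50%, 3 anti-Eos peaks were overlapped. No paired analysis was possible because each group holds 1 library. The depth of 10 to 25 fragments per summit limits the precision of every fold given here.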
